A study of Homo sapiens with 9 samples.

Results

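The baseline open chromatin of control HepG2 cells was described from 68784 accessible intervals, which are all unique intervals of the NTG peak list on chromosomes 1 to 22. They were counted out of 192176 intervals in the 3 peak lists of the series, and the 946 NTG intervals on the sex chromosomes were left out. HepG2 is an established human liver cancer line that keeps many features of hepatocytes and is aneuploid, with extra copies of several chromosomes. The cells had been transfected with NTG, a non-targeting control siRNA, at 50 nM with Lipofectamine RNAiMAX and were collected after 72 h, so that the baseline is that of transfected cells of 1 line and not of liver tissue. Accessibility was read out by ATAC-seq from 3 NTG replicates, for which the authors deposited 1 peak list. No value per replicate could therefore be set beside another, no test was made, and the 95% Wilson intervals given after shares cover counting error only and treat neighbouring intervals as independent.

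In ATAC-seq a transposase inserts sequencing adapters where DNA is not wrapped in nucleosomes or covered by other proteins. Active promoters and enhancers are open in this sense because transcription factors and the transcription machinery displace nucleosomes there. Promoters rich in CpG dinucleotides are open in most cell types, whereas promoters poor in CpG tend to open where a gene is used. In hepatocytes the factors HNF1, HNF4, FOXA and C/EBP bind the promoters and enhancers of genes for plasma proteins, lipoproteins and metabolic enzymes. An open start site is not a measure of transcription, since a start site can be open at a gene that makes little RNA.

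The sequences below are shown because they are open DNA that holds a short match to a motif of 1 of these liver factors. All are from GRCh37, and capitals mark exact matches on either strand to GTTAATNAT for HNF1, CAAAGTCCA for HNF4, TGTTTAC for FOXA or TTGCNNAA for C/EBP. The first 6 are the 120 bases directly upstream of the start of the canonical transcript of a liver gene, written 5′ to 3′ on the strand of the gene. FGA, SERPINC1 and APOB were taken by the rule for named genes, and AHSG, F13B and PROZ were chosen after their values were seen. Each lies wholly inside an NTG interval and outside annotated exons. FGA (chr4:155511895-155512014, minus strand) and F13B (chr1:197036391-197036510, minus strand) encode a fibrinogen chain and a subunit of coagulation factor XIII, and each holds an HNF1 match. PROZ (chr13:113812842-113812961, plus strand), which encodes protein Z of the coagulation system, holds an HNF4 match. SERPINC1 (chr1:173886466-173886585, minus strand), APOB (chr2:21266946-21267065, minus strand) and AHSG (chr3:186330729-186330848, plus strand) encode antithrombin, apolipoprotein B and fetuin-A, and each holds a C/EBP match.
FGA: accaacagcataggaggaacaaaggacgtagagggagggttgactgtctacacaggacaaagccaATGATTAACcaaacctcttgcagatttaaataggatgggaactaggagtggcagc
F13B: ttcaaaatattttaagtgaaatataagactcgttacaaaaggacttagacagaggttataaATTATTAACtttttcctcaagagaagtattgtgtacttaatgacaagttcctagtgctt
PROZ: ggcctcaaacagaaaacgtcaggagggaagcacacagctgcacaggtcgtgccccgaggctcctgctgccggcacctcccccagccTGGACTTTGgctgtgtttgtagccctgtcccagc
SERPINC1: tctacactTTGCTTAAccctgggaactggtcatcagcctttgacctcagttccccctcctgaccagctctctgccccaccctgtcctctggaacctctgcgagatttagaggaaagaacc
APOB: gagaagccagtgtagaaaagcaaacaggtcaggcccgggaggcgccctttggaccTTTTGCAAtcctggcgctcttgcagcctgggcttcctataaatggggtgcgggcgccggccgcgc
AHSG: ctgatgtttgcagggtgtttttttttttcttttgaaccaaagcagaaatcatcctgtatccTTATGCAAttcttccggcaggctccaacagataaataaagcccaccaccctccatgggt

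The other 3 sequences are the 200 bases around the strongest summit of intervals away from promoters. No such window held all 4 motifs, 10 held 3 of them, and those 3 with the highest fold enrichment among those considered are shown on the plus strand. Each held HNF1, FOXA and C/EBP matches. The first (chr7:17246080-17246279) lies in an intron of AHR, the gene of the aryl hydrocarbon receptor, as the annotation draws it, within an interval of 721 bp and 10.3-fold enrichment. The second (chr9:34073228-34073427) is intergenic, 13057 bp from DCAF12, within an interval of 860 bp and 7.28-fold enrichment. The third (chr20:14859759-14859958) lies in an intron of MACROD2, within an interval of 891 bp with 3 summits and 6.27-fold enrichment.
AHR intron: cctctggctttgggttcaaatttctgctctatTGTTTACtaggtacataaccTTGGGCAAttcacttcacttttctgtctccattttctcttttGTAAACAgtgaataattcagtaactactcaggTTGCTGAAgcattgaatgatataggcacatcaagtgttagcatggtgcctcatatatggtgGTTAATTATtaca
DCAF12 neighbour: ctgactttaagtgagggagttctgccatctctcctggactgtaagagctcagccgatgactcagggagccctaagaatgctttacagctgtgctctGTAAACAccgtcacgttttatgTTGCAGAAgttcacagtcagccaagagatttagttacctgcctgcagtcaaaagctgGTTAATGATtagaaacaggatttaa
MACROD2 intron: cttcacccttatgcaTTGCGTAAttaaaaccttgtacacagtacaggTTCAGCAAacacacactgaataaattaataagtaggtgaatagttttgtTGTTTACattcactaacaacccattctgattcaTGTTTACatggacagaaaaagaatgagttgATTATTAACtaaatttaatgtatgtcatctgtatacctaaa

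A match of 7 to 9 letters is a description of the letters and not evidence of a bound factor. In the 120 bases upstream of the 5′ end of all 19222 protein-coding genes, an HNF1 match stood in 66 genes (0.343%), an HNF4 match in 25 (0.130%), a FOXA match in 184 (0.957%) and a C/EBP match in 647 (3.37%). In the same window of 161 liver genes described below, HNF1, HNF4 and FOXA matches each stood in 4 genes (2.48%, 0.970 to 6.21) and C/EBP matches in 10 (6.21%, 3.41 to 11.1).

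The NTG intervals were mostly short and of modest enrichment. Their median width was 312 bp, with quartiles of 205.75 and 546 bp and a range from 148 to 3565 bp. Fold enrichment, the ratio that the peak caller computed between reads at a summit and the local background, had a median of 3.37, quartiles of 2.81 and 4.84 and a maximum of 24.5. Solving fold enrichment and −log10 p together for whole reads gave a median of 20 reads at the strongest summit, with quartiles of 15 and 32 and a lowest value of 12. Sites with fewer reads were not called, and whether they are open could not be seen at this depth. The intervals covered 30.0 Mb, or 1.12% of the 2684.57 Mb of sequenced bases. The nearest other strongest summit lay a median of 8634 bp away, and 54.4% (54.1 to 54.8) of the intervals had another within 10 kb.

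Promoters held the part of the open chromatin that most exceeded its share of the genome. A promoter interval had its strongest summit no more than 1 kb from 1 of 212760 annotated transcript starts, and the others were exon, intron or intergenic. Promoter intervals numbered 17355, or 25.2% (24.9 to 25.6) of the list, where promoter bases are 7.67% of the sequenced genome, a ratio of 3.29. Introns held 29221 intervals (42.5%, 42.1 to 42.9) against 53.1% of bases. Intergenic DNA held 20082 (29.2%, 28.9 to 29.5) against 35.8% of bases, and exons 2126 (3.09%, 2.96 to 3.22) against 3.42%. Per Mb of each class there were 84.3 promoter intervals, 23.2 exon intervals, 20.5 intron intervals and 20.9 intergenic intervals. By number, therefore, most open sites of HepG2 were away from promoters, and 4.22% (4.08 to 4.38) lay more than 100 kb from any annotated start.

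The classes differed in strength. Median fold enrichment was 4.27 in promoter intervals and 3.28 in all others, with interquartile ranges of 3.05 to 6.42 and 2.74 to 4.36. A median of 31 reads stood at promoter summits and 18 at the others. Among the strongest 10% of intervals 51.3% (50.1 to 52.4) were promoters, whereas intron and intergenic intervals made up 28.0% and 18.9%. The promoter share did not fall evenly with strength, since it was 14.0% (13.2 to 14.8) in the second weakest 10% and 23.6% (22.6 to 24.6) in the weakest. The weakest 10% also had more reads at its summits, a median of 17 against 12 in the second weakest.

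**Figure D1:**
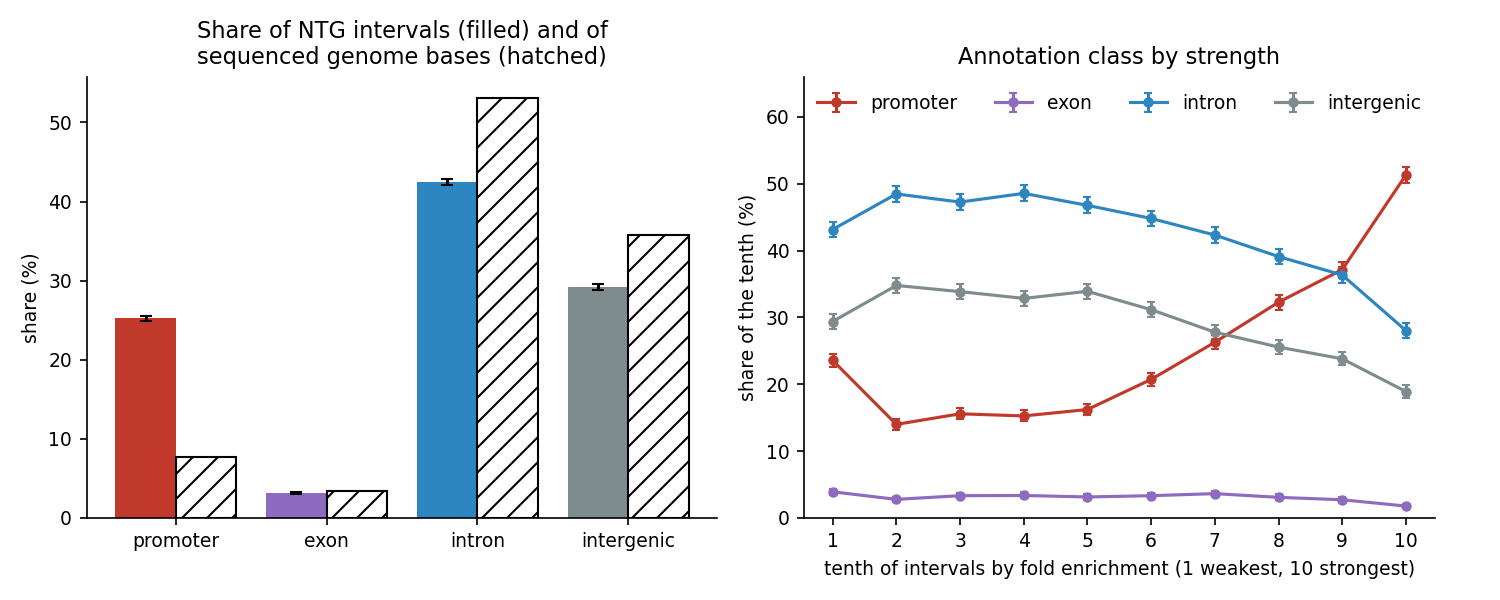
The left panel plots the share of the 68784 NTG intervals in each annotation class (filled bars, in %) beside the share of sequenced genome bases in that class (hatched bars, no error). The right panel plots the share of each class (in %) within groups of 10% of the intervals ordered by fold enrichment. Filled bars and points carry 95% Wilson intervals. Promoters were 25.2% of intervals on 7.67% of bases and reached 51.3% in the strongest 10%.

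Promoter intervals also stood apart in base composition and shape. The 200 bp around the strongest summit had a median GC content of 62.0% with 13 CpG dinucleotides at promoters, and 46.0% with 2 elsewhere. Median width was 530 bp at promoters and 277 bp elsewhere, with upper quartiles of 903 and 445 bp. The 17355 promoter intervals thus covered 37.2% of all open bases.

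Intervals with several summits are stretches in which the caller separated neighbouring local maxima. The list held 93593 summits, and 15772 intervals (22.9%, 22.6 to 23.2) had at least 2. This share was 43.6% (42.9 to 44.3) at promoters, 17.7% (16.1 to 19.4) in exons, 15.9% (15.5 to 16.3) in introns and 15.9% (15.4 to 16.4) in intergenic DNA. Intervals with at least 3 summits numbered 5661, of which 61.4% (60.1 to 62.6) were promoters, and those with at least 5 numbered 830, of which 74.0% (70.9 to 76.8) were promoters. Within an interval, neighbouring summits lay a median of 237 bp apart, with quartiles of 171 and 343 bp, and the most frequent spacing was 160 to 180 bp. The spacing that the caller can separate was not tested.

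Wide intervals, those of at least 1000 bp, numbered 5112 (7.43%, 7.24 to 7.63) and covered 22.5% of all open bases. Of the promoter intervals 19.8% (19.2 to 20.4) were wide, against 3.26% (3.11 to 3.42) of all others, and 67.2% (65.9 to 68.4) of wide intervals were promoters. Of the wide intervals 4639 had several summits and 473 had only 1, and the latter had a higher median fold enrichment of 9.27 against 6.56 in wide intervals with several. At a minimum width of 1500 bp, 1066 intervals were left and 76.0% (73.3 to 78.5) of them were promoters. Both shares also rose with strength, from 4.94% with several summits and 0.131% wide in the weakest 10% to 50.0% and 34.3% in the strongest. Shape apart from strength was not tested.

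**Figure D2:**
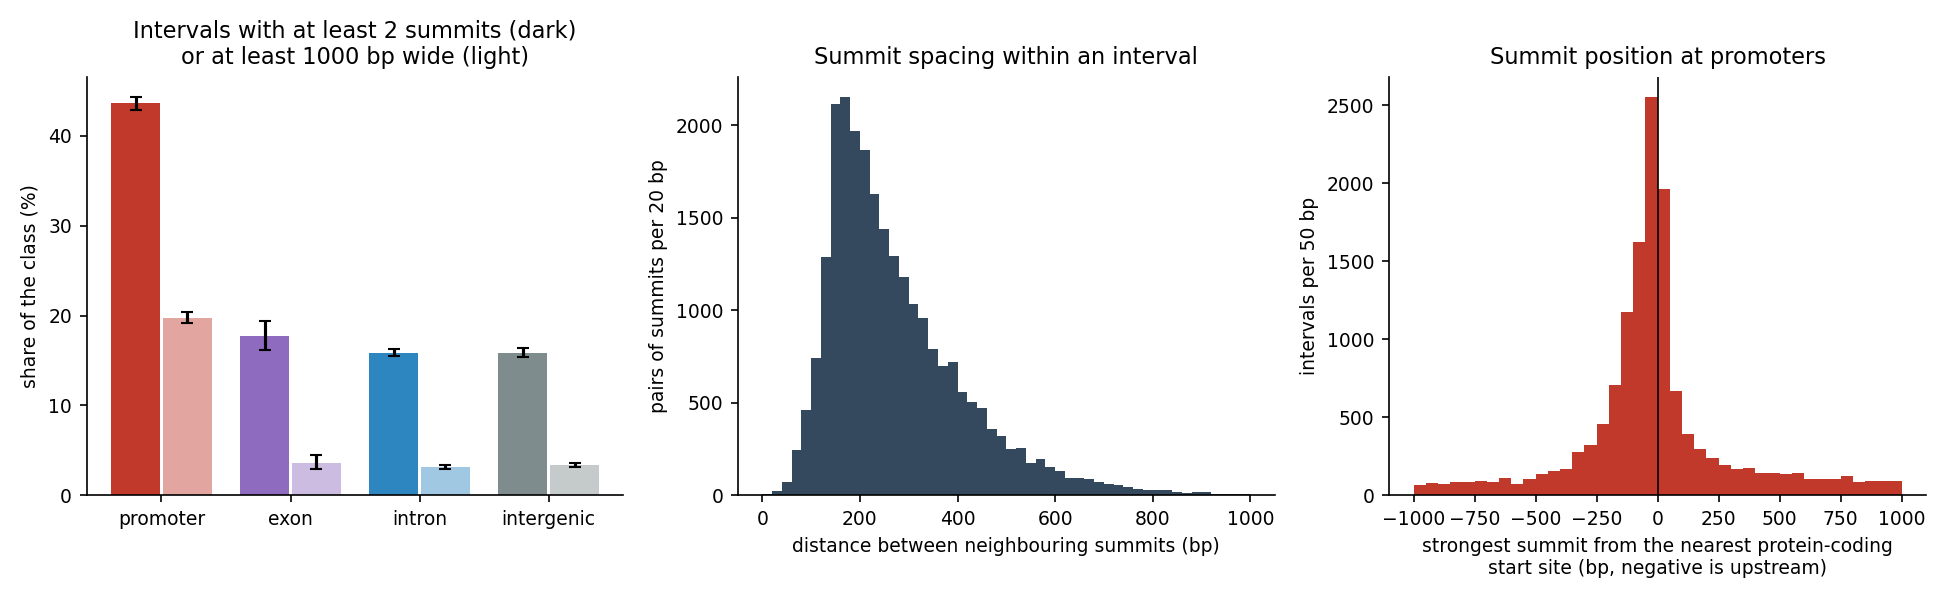
The left panel plots, for each annotation class, the share of NTG intervals (in %) with at least 2 summits (dark bars) and of at least 1000 bp (light bars), with 95% Wilson intervals. The middle panel counts pairs of neighbouring summits by their distance in bp, and the right panel counts intervals by the distance in bp of their strongest summit from the nearest protein-coding start site. Promoters led in both shares, spacing peaked between 160 and 180 bp, and summits gathered just upstream of start sites.

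The summits gathered close to the start of transcription. Of 13909 intervals with their strongest summit within 1 kb of a protein-coding start, 9385 (67.5%, 66.7 to 68.2) had it within 200 bp, and 60.6% (59.8 to 61.4) had it upstream. The median position was 24 bp upstream, and the fullest 50 bp bin was the one directly upstream of the start, with 2554 summits against 1965 in the bin directly downstream.

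The extremes of the list were not liver genes for the most part. The 5 intervals of highest fold enrichment had 24.5, 20.5, 19.9, 19.4 and 19.3. The strongest (chr14:88237571-88237818, 248 bp) lay in an intron of an unnamed long noncoding RNA, 66516 bp from GALC, the gene of a lysosomal galactosylceramidase. The second (chr1:143913195-143913839) lay 258 bp from the start of FAM72D, a member of a family of near-identical gene copies, although the 50 bp around its summit occurred only 1 time in the genome. The other 3 were at starts of long noncoding RNAs on chromosomes 7, 21 and 6 (chr7:143533557-143533900, chr21:15399254-15400023 and chr6:58287368-58288194), the last of them LINC00680, where the 50 bp around the summit occurred 2 times in the genome.

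Among the widest intervals a lipoprotein gene came first. The widest (chr2:21219775-21223339, 3565 bp, 10 summits, 3.48-fold) was intergenic, with its strongest summit 2782 bp beyond the 3′ end of APOB, the gene of the structural protein of very low density lipoprotein. The next were the promoters of POLR2B, a subunit of RNA polymerase II (chr4:57842174-57845568, 3395 bp), and SMPDL3A, a sphingomyelinase-like enzyme (chr6:123110196-123113433, 3238 bp). The fourth was at the start of an unnamed long noncoding RNA (chr14:32670229-32673424, 3196 bp). The fifth had its strongest summit in an intron of EEF1A1 as annotated, the gene of translation elongation factor 1 alpha (chr6:74221083-74224273, 3191 bp, 11 summits). The largest number of summits, 13, was in an intergenic interval near the centromere of chromosome 21 (chr21:11143734-11146578) over a high local background of 27.6 reads. AKR1C1, an aldo-keto reductase abundant in liver, had an exon interval with 11 summits (chr10:5023931-5026668), and the promoter of EIF4E, the cap-binding translation factor, one with 10 (chr4:99849104-99851362). EEF1A1 and AKR1C1 have close copies elsewhere in the genome, and the 50 bp around each of these summits occurred 1 time.

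Genes were then asked for an open start site, that is any summit within 1 kb of any of their annotated transcript starts. Of 19222 protein-coding genes, 11894 (61.9%, 61.2 to 62.6) had one. The share was 78.2% (77.4 to 79.0) of 11190 genes with a CpG-rich start, defined as at least 50% GC and an observed over expected CpG ratio of at least 0.6 in the 1 kb around the 5′ end, and 39.1% (38.1 to 40.2) of 8032 genes with a CpG-poor start. These are the background against which gene lists are given. Open starts were broader and stronger than the list as a whole, with a median width of 739 bp and a median fold enrichment of 5.35. Open CpG-rich starts had medians of 789 bp and 5.59, and open CpG-poor starts 601 bp and 4.73. Because genes lie close together, 3151 open genes (26.5%) shared the summit with the start of another protein-coding gene. Of other gene types, 25.8% (25.1 to 26.4) of 18229 long noncoding RNA genes, 9.36% (8.35 to 10.5) of 2841 miRNA genes and 4.80% (4.38 to 5.26) of 9246 processed pseudogenes had an open start.

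Families at both ends of use showed the span of the measure. Of 80 ribosomal protein genes, which every cell uses, 72 (90.0%, 81.5 to 94.8) had an open start. Of 414 olfactory receptor genes, which are used in sensory neurons of the nose, 13 (3.14%, 1.84 to 5.30) had one, and 152 of the 414 (36.7%) had no interval within 50 kb. Without an interval in that range were 6.71% of all protein-coding genes.

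The liver program was described with 8 lists of liver genes. Of 165 listed genes 161 were on chromosomes 1 to 22, and 102 (63.4%, 55.7 to 70.4) had an open start, against 61.9% of all protein-coding genes. The order of these shares was not stable, since with −log10 q of at least 5 it was 45.3% (37.8 to 53.1) of liver genes against 51.2% of all, and by the 5′ end alone 51.6% (43.9 to 59.1) against 53.5%. Without summits near the start of another gene it was 56.5% (48.8 to 63.9) against 38.3%. Taken by promoter type the comparison differed, since 132 of the 161 have CpG-poor starts. Of these 76 (57.6%, 49.0 to 65.7) were open against 39.1% of all CpG-poor genes, and of 29 with CpG-rich starts 26 were open (89.7%) against 78.2%. Open liver starts had a median fold enrichment of 4.18 and a median width of 554.5 bp, both below the medians of all open genes. No test stands behind these differences, and the lists were drawn up by hand. The split by promoter type was not rerun with the stricter q or by the 5′ end alone. It takes CpG content at the 5′ end, whereas a gene counted as open at any annotated start, and the number of starts per gene was not matched. No outcome that would contradict the label HepG2 was set beforehand, so these shares do not test it. The lists below show where the liver program had a called open start and where none was called, which at this depth does not show that a start was closed.

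Liver transcription factors were open most often, at 20 of 22 genes (90.9%, 72.2 to 97.5). All 12 with CpG-rich starts were open, and 8 of 10 with CpG-poor starts. The strongest were TBX3, a T-box repressor active in liver development (10.6-fold, 812 bp), HNF4G, a relative of HNF4A (9.22-fold, 1959 bp with 5 summits, at another start than the canonical one, whose nearest summit lay 56347 bp away), NR0B2, the bile acid responsive corepressor SHP (7.16-fold), and ONECUT2, a homeodomain factor of hepatocytes and bile ducts (6.31-fold). The other open factors of this list had lower enrichment, among them FOXA1 with 5.16-fold and 161 reads at a summit shared with the start of TTC6. FOXA2, a pioneer factor of endoderm, had 2.81-fold in an interval of 1080 bp with 5 summits, from 50 reads over a local background of 17.2. CEBPA, a factor of differentiated hepatocytes, had 2.13-fold in 197 bp, from 25 reads over a local background of 11.2. Only 0.772% of all NTG intervals had a lower fold enrichment. Both FOXA2 and CEBPA thus exceeded the list medians of 20 reads and of 4.72 for the background, and their low ratios do not mean few reads. CREB3L3, a hepatocyte factor of the fasting response, had no open start, and its nearest summit lay 82795 bp away.

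HNF4A, the nuclear receptor that maintains hepatocyte identity, is read from an upstream promoter and a downstream promoter. All 10 of its annotated starts had a summit within 1 kb. The upstream start had the stronger one, 3.71-fold with 41 reads (chr20:42983944-42984558), whereas summits 45554 and 45979 bp into the gene had 2.22-fold with 30 reads and 1.92-fold with 26 reads. The strongest site of the gene was neither, but an intron interval 15113 bp into the gene with 6.37-fold and 56 reads.

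Plasma carriers and oncofetal proteins were open at 13 of 19 genes (68.4%, 46.0 to 84.6). SERPINA1, which encodes alpha-1 antitrypsin, had 6.61-fold in 629 bp, and SERPINA6, which encodes the cortisol carrier of plasma, 6.20-fold in 1023 bp with 4 summits. FETUB, a protease inhibitor, and TTR, the carrier of thyroid hormone and retinol binding protein, each had 3.94-fold in short intervals of 171 and 152 bp. ALB, the gene of albumin, had 3.53-fold with 16 reads in an interval of 695 bp (chr4:74269174-74269868), its summit 653 bp upstream of the nearest start and 685 bp from the start of the canonical transcript. AFP, the fetal counterpart of albumin that hepatoma lines make, had 3.91-fold with 20 reads in 429 bp, 246 bp into a transcript, and no summit within 3583 bp of its canonical start. No summit within 1 kb was found for GC, the vitamin D carrier (nearest 1805 bp), SERPINA3, an acute phase antiprotease (nearest 1685 bp), or HP, haptoglobin (nearest 6518 bp). IGF2 and DLK1, listed with AFP as oncofetal genes, had no summit within 39444 and 20074 bp.

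Apolipoprotein and lipoprotein genes were open at 12 of 18 (66.7%, 43.7 to 83.7). MTTP, which loads lipid onto apolipoprotein B, led with 12.6-fold in 1456 bp, but its summit is shared with the start of TRMT10A. APOH, a phospholipid-binding plasma protein, had 5.59-fold, and APOM, a carrier of HDL, 4.56-fold. The promoter of APOB had 4.33-fold with 80 reads and spanned 2557 bp with 6 summits (chr2:21264719-21267275). APOA1, the main protein of HDL, had 3.67-fold with 52 reads in 535 bp (chr11:116708221-116708755). In the same gene cluster APOA4 and APOA5 had no open start, with nearest summits 5921 and 3840 bp away, and APOC2 of the chromosome 19 cluster had none within 6983 bp.

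Coagulation genes were open at 16 of 19 (84.2%, 62.4 to 94.5) and had the highest median fold enrichment among the 8 liver lists, 6.22, whereas all but 1 have CpG-poor starts. PROS1, protein S, had 18.6-fold with 221 reads, at a summit shared with the start of another protein-coding gene. Without a shared start FGG, a fibrinogen chain, had 9.99-fold in 1061 bp, SERPINC1 9.80-fold in 1123 bp and FGA 9.55-fold in 553 bp, and the upstream sequences of the last pair are those printed above. FGB, the third fibrinogen gene, which lies beside FGA and FGG, had no summit within 2265 bp. F12 and KLKB1, factors of the contact pathway, also had no open start, with nearest summits 9838 and 9400 bp away.

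Complement and acute phase genes were open at 14 of 22 (63.6%, 43.0 to 80.3). C6 and C8B, components of the membrane attack complex, had 9.55-fold and 6.65-fold, C5 had 5.12-fold at a start shared with CNTRL, and MASP1, a protease of the lectin pathway, had 4.76-fold. C4A and C1R had no summit within 9856 and 15610 bp. C4A has a near-identical neighbouring copy, so that its state is uncertain. Of the acute phase genes SAA1, SAA2, HAMP, CRP and APCS had no summit within 6919, 10673, 11037, 84478 and 95352 bp. SAA4 was open at 2.91-fold with 13 reads.

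Drug metabolism had the lowest share among the 8 liver lists, with open starts at 6 of 25 genes (24.0%, 11.5 to 43.4). No test compared the lists, and this interval overlaps those of bile acid handling (31.0 to 73.8) and complement (43.0 to 80.3), among others. By promoter type 5 of 23 CpG-poor genes were open (21.7%, 9.66 to 41.9) against 39.1% of all CpG-poor genes. The open ones were led by ADH4, a class II alcohol dehydrogenase (6.54-fold at 1 of 8 starts, with the nearest summit 13106 bp from its canonical start), the glucuronosyltransferases UGT2B10 (5.81-fold) and UGT2B7 (4.88-fold), and CYP27A1, a mitochondrial sterol hydroxylase (4.97-fold). CYP1A2, CYP2A6 and CYP2B6, enzymes of drug oxidation, had no summit within 17747, 46020 and 69955 bp. CYP3A4, the major drug oxidase of adult liver, had none within 10702 bp, CYP2E1, the ethanol-inducible oxidase, none within 97137 bp, and CYP7A1, the rate-limiting enzyme of bile acid synthesis, none within 13251 bp. Of the 25 genes 6 (24.0%) had no interval at all within 50 kb, against 6.71% of all protein-coding genes. Several of these genes belong to families of similar copies, so that their state is uncertain where reads fit more than 1 copy.

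Metabolic enzymes of gluconeogenesis, the urea cycle and amino acid breakdown were open at 12 of 19 genes (63.2%). CPS1, the first enzyme of the urea cycle, had 15.5-fold with 215 reads in 1777 bp at a summit shared with the start of LANCL1, and no summit lay within 2987 bp of its canonical start. PC, pyruvate carboxylase, had 7.61-fold, and HGD, an enzyme of tyrosine breakdown, 7.52-fold. PCK1, the cytosolic enzyme that commits carbon to gluconeogenesis, had 2.70-fold with 31 reads in 492 bp (chr20:56135687-56136178). G6PC, the final enzyme of glucose release, listed under its current symbol G6PC1, had no summit within 13844 bp, FBP1 none within 26371 bp and TAT, tyrosine aminotransferase, none within 2808 bp.

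Genes of bile acid handling, transport and surface receptors were open at 9 of 17 (52.9%, 31.0 to 73.8). KLB, the coreceptor of FGF19, had 6.24-fold, ABCC2, the canalicular exporter of bilirubin conjugates, 6.07-fold, and FGFR4, the receptor of FGF19, 5.46-fold. ABCG8 and ABCG5, both chains of the canalicular sterol exporter, start back to back and shared 1 interval (chr2:44065939-44066417, 4.50-fold, 3 summits). SLC10A1, the bile acid importer NTCP, had no summit within 12228 bp, ABCB11, the bile salt export pump, none within 3226 bp, and SLCO1B1, an organic anion importer, none within 117694 bp.

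**Figure D3:**
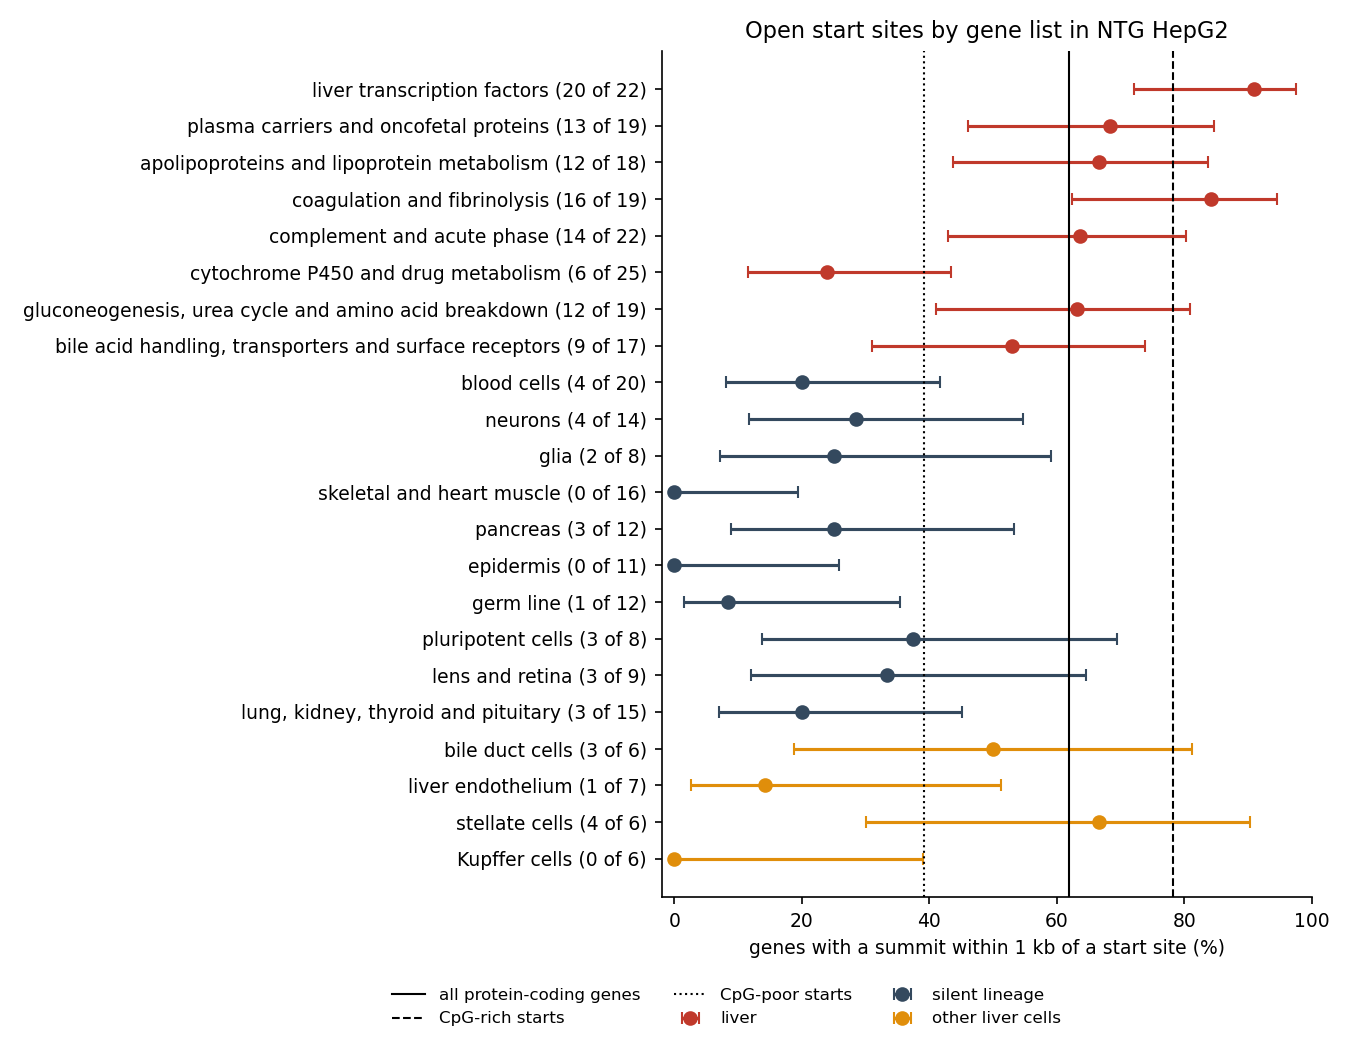
The plot gives, for each of 22 gene lists, the share of genes (in %) with an NTG summit within 1 kb of a start site, as points with 95% Wilson intervals, and the counts beside the list names. Vertical lines mark the shares over all protein-coding genes (61.9%), CpG-rich starts (78.2%) and CpG-poor starts (39.1%). Liver transcription factors and coagulation genes lie highest, and drug metabolism lies among the lists of other lineages.

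The lists of lineages that a liver cell does not follow were open far less often. Of 125 genes 23 (18.4%, 12.6 to 26.1) had an open start, against 61.9% of all protein-coding genes. Of 96 with CpG-poor starts 13 were open (13.5%, 8.09 to 21.8), against 39.1% of all CpG-poor genes. Of 29 with CpG-rich starts 10 were open (34.5%, 19.9 to 52.7), against 78.2% of all CpG-rich genes. The open ones had a median width of 293 bp. None of 16 muscle genes, including MYOD1, MYOG and the cardiac and skeletal myosins, had an open start, which allows a share of up to 19.4%, and none of 11 epidermal genes had one, with a limit of 25.9%.

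Of the 23 open starts 9 shared the summit with the start of another gene of any type. Of all 11894 open protein-coding genes 5370 did. Of 20 blood cell genes 4 were open. LYZ, lysozyme, had 7.04-fold with 40 reads in 1374 bp and CD8A, a T cell coreceptor, 5.47-fold with 41 reads, whereas CD14, a coreceptor for bacterial lipopolysaccharide, had 2.36-fold. Of 14 neuronal genes ELAVL4 (5.19-fold, shared with AGBL4), an RNA-binding protein, GAD1 (3.44-fold), which makes the transmitter GABA, TBR1 (2.34-fold), a cortical factor, and SLC17A7 (2.19-fold), a glutamate transporter, were open. Of 8 glial genes AQP4, a water channel, and MBP, a myelin protein, were open at 4.30-fold and 4.05-fold. Of 12 pancreatic genes GCG (2.72-fold), PDX1 (2.61-fold) and CTRB1 (2.41-fold) were open, which encode glucagon, a pancreatic homeodomain factor and chymotrypsinogen. The openings of CD8A, SLC17A7, ELAVL4, AQP4 and GCG were at other starts than the canonical ones, whose nearest summits lay 5102, 1534, 46670, 2302 and 1565 bp away.

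In the remaining lineages the stronger openings were as follows. GDF9, an oocyte growth factor, was the only open gene of 12 germ line genes, at 9.15-fold with 72 reads, and shared its summit with the start of UQCRQ. Of 9 lens and retina genes NRL, a rod factor (6.96-fold, shared with DCAF11), BFSP1, a lens filament protein (5.09-fold, shared with DSTN), and CRYGD, a crystallin (2.79-fold), were open. Of 8 pluripotency genes SOX2 had 6.75-fold with 43 reads in 513 bp at a start shared with the noncoding SOX2-OT, LIN28B, an oncofetal regulator of let-7 miRNAs, 5.10-fold in 1329 bp with 4 summits, and ZFP42 2.70-fold with 12 reads, the lowest number of reads in the list. TSHR, the thyrotropin receptor, had 8.02-fold with 40 reads, NKX2-1, a lung and thyroid factor, 5.02-fold with 120 reads at a start shared with SFTA3, and SLC12A1, a kidney cotransporter, 4.15-fold at a start shared with CTXN2 and MYEF2. The canonical starts of ZFP42 and SLC12A1 had no summit within 7329 and 27980 bp. Among the 23 genes TSHR had the highest fold enrichment of those whose summit was near no other annotated start.

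Markers of the other cells of liver tissue were mixed. Of 25 genes 8 (32.0%, 17.2 to 51.6) were open, against 61.9% of all protein-coding genes. Of 21 with CpG-poor starts 6 were open (28.6%, 13.8 to 50.0), an interval that includes the 39.1% of all CpG-poor genes. Among bile duct genes EPCAM, an epithelial adhesion protein that hepatoma lines also carry, had 10.2-fold with 114 reads in 1018 bp, SOX9, a progenitor and bile duct factor, 7.57-fold with 128 reads in 1431 bp with 5 summits, and SPP1, osteopontin, 7.22-fold with 41 reads. KRT7, KRT19 and CFTR had no open start. Among stellate cell genes ACTA2, smooth muscle actin, had 7.76-fold in 2199 bp at a start shared with FAS, LRAT, which stores retinol as ester, 5.41-fold, DCN, a matrix proteoglycan, 4.57-fold, and PDGFRB, a growth factor receptor, 3.80-fold, whereas COL1A1 and COL3A1 were not open. All 4 were open at other starts than the canonical ones, whose nearest summits lay 17294 bp away for ACTA2, 2161 bp for LRAT, 4585 bp for DCN and 1406 bp for PDGFRB. Of 7 endothelial genes only LYVE1, a hyaluronan receptor, was open, at 3.69-fold with 19 reads. None of 6 Kupffer cell genes was open, which allows a share of up to 39.0%, and 3 of them had no interval within 50 kb.

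The number of open sites was counted around 4 liver genes and differed between them. Within 100 kb of the 5′ end of a protein-coding gene there were a median of 6 intervals, with quartiles of 4 and 9 and a 95th percentile of 14. ALB had 21, of which 6 were upstream, 6 in the gene and 9 beyond it, so that they cannot all be credited to ALB. The strongest, 7.02-fold with 45 reads, lay 35524 bp from the 5′ end of ALB in an intron of the neighbouring AFP, and the widest, 2012 bp with 6 summits, lay 60864 bp from it, beyond AFP. Those at 53681 and 84441 bp were the start site intervals of AFP and AFM. APOB had 32 intervals, 14 upstream, 15 in the gene and 3 beyond. The strongest site, at position -12443 bp upstream of the 5′ end, had 8.68-fold with 83 reads, against 4.33-fold at the promoter and 1.86-fold at the weakest interval within the gene. HNF4A had 12 and CYP3A4 8, of which none was within CYP3A4 itself and the strongest, 7.32-fold, lay 90664 bp away in an intron of another gene. The chromosomes of these genes differ in density, against 25.6 intervals per Mb over the whole list. Chromosome 2 with APOB held 48.7 per Mb and chromosome 20 with HNF4A 36.6. Chromosome 4 with ALB held 20.2 and chromosome 7 with CYP3A4 19.8. The part of chromosome density in the 4 counts was not tested.

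**Figure D4:**
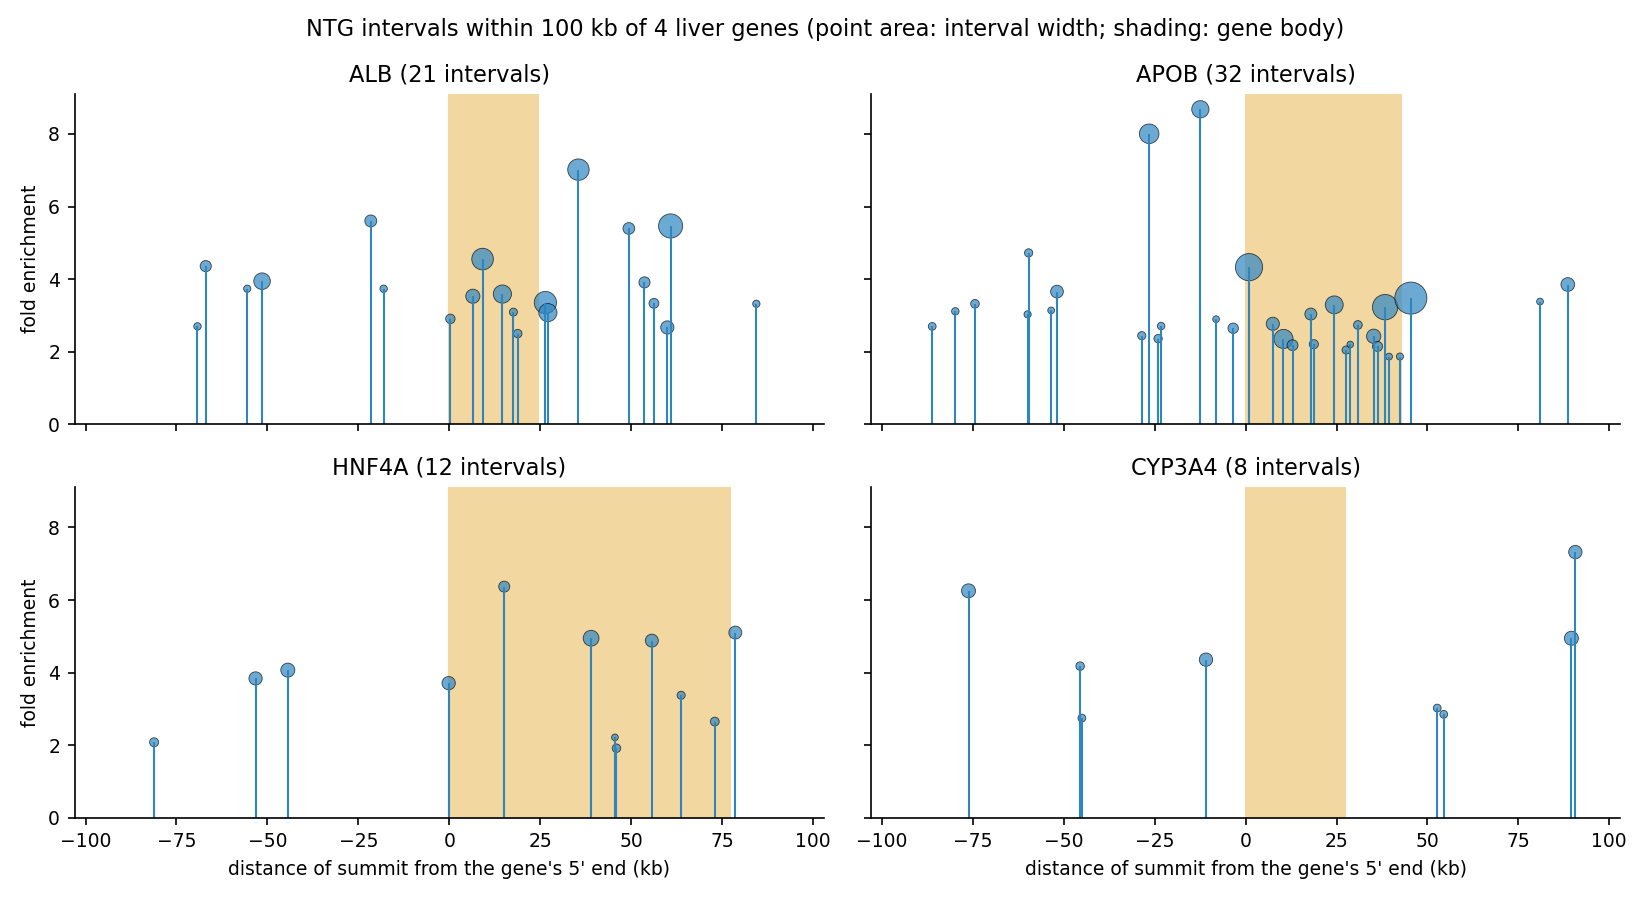
Each panel plots the NTG intervals within 100 kb of the 5′ end of ALB, APOB, HNF4A or CYP3A4, by the distance of the strongest summit from that end in kb (positive into the gene) and its fold enrichment. Point area is proportional to interval width and shading marks the gene. APOB has 32 intervals, 15 of them in the gene, and CYP3A4 has 8, none in the gene.

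Motif content differed between promoters and other intervals. For 13 motifs, windows of 200 bp around the strongest summit were searched for exact matches on both strands and set beside 200 bp tiles of the same chromosomes. Matches to liver factors were more frequent away from promoters. In the 51429 windows away from promoters HNF4 matches stood in 1.06% (0.973 to 1.15) against 0.253% of tiles, a ratio of 4.17, FOXA matches in 5.66% (5.46 to 5.86) against 3.11%, a ratio of 1.82, and HNF1 matches in 1.32% (1.23 to 1.42) against 0.879%. C/EBP matches stood in 11.5% against 10.7% of tiles, a ratio of 1.08. At promoters HNF4 matches had a ratio of 2.37, whereas HNF1, FOXA and C/EBP had 0.826, 0.792 and 0.583.

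These ratios were higher where sites were stronger. Among intervals away from promoters in the strongest 10%, FOXA matches stood in 10.8% (9.83 to 11.9), HNF1 in 2.39% (1.92 to 2.96) and HNF4 in 1.67% (1.29 to 2.17), and in the weakest 10% in 3.82%, 0.856% and 0.609%. Windows away from promoters with a FOXA match had a median fold enrichment of 3.63 against 3.25 without. AP-1 (TGANTCA), a factor of growth and stress signals, matched in 15.4% (15.1 to 15.7) of windows away from promoters against 6.28% of tiles, and in 22.1% (20.8 to 23.6) of the strongest 10%. TEAD (CATTCCA) matched in 4.91% against 3.71%. Of windows away from promoters 8920 (17.3%) held 1 of the 4 liver motifs, 562 (1.09%) held 2 and 10 held 3, with median fold enrichments of 3.40, 3.75 and 4.84, and 3.22 for windows with none. Tile shares for these numbers of motifs were not computed, and C/EBP alone stood in 11.5% of the windows against 10.7% of tiles.

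Promoters held the motifs of factors that most cells use. SP1 (GGGGCGGGG), a factor of GC-rich promoters, matched in 10.7% (10.3 to 11.2) of promoter windows against 0.294% of tiles, CTCF (AGNGGGCGC), the boundary factor, in 4.09% (3.80 to 4.39), and NFY (CCAATCAG) in 3.69% (3.42 to 3.98). ETS (CCGGAAGTG), YY1 (AAGATGGCG), NRF1 (GCGCATGCG) and CRE (TGACGTCA) matched in 2.07%, 1.23%, 1.16% and 1.08%, which were 61.6, 18.3, 75.1 and 15.3 times their shares of tiles. Away from promoters these 4 reached at most 0.146%. CTCF was the only 1 of the 7 above 5 times its tile share there, with 1.12% (1.03 to 1.21) and a ratio of 7.21. Tiles are not matched in base composition. Median GC was 62.0% at promoters and 46.0% elsewhere, and the part of base composition in the ratios of all 13 motifs was not tested. Matches of different motifs seldom shared bases. Of 519 windows with both an AP-1 and a TEAD match 41 had overlapping matches, and of 124 with HNF1 and AP-1 matches 15 did.

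**Figure D5:**
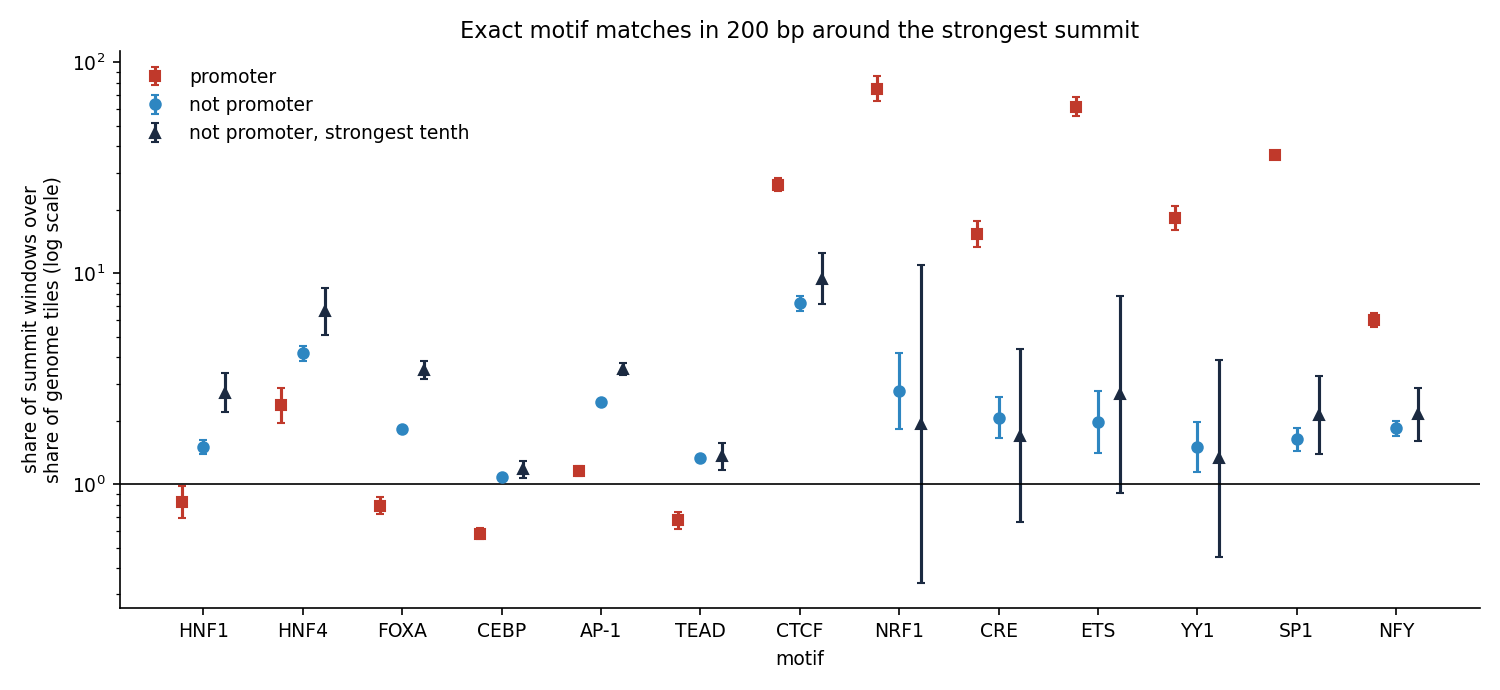
For each of 13 motifs the plot gives the share of 200 bp summit windows with an exact match divided by the share of 200 bp genome tiles, on a log scale, for promoter intervals (squares), other intervals (circles) and those of the others in the strongest 10% of all intervals (triangles). Error bars are 95% Wilson intervals of the window share, and the line marks a ratio of 1. HNF1, HNF4, FOXA and AP-1 matches exceed their tile shares away from promoters, and C/EBP matches barely do (ratio 1.08). HNF4 and AP-1 matches also exceed theirs at promoters (2.37 and 1.16). SP1, ETS and NRF1 matches rise at promoters, where their ratios are 36.4, 61.6 and 75.1.

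The open sites were unevenly spread over chromosomes. Chromosome 2 held 48.7 intervals per Mb, chromosome 6 42.9, chromosome 14 37.8 and chromosome 20 36.6, whereas the other 18 ranged from 14.5 on chromosome 22 to 27.4 on chromosome 16. The surplus of chromosome 2 lay away from promoters, since it had 41.6 such intervals per Mb and only 14.6% promoters. At the other end, 68.5% of the intervals of the gene-dense chromosome 19 were promoters. Median local background was highest on chromosomes 20 (7.46 reads), 14 (6.64), 16 (6.57) and 17 (6.42), against 4.83 on chromosome 2 and 4.76 on chromosome 6. Reads per chromosome and chromosome number were not measured here, and their part in these densities was not tested.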

How the data were processed

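Chromatin accessibility of HepG2 cells was measured by ATAC-seq in 9 samples of 3 groups, and the 3 NTG replicates were used here. Per the submitters' processing notes, reads were handled with Trim Galore 0.4.1, Bowtie2, SAMtools, MACS2 and deepTools 2.2.4 on hg19, which is GRCh37. The authors deposited 1 peak list for each group, so that the replicates stand pooled. In the deposited list each summit has a fold enrichment, a ratio of reads over local background, with its −log10 p, and a −log10 q value that was used only as a score for a stricter threshold. The caller settings, the shift of reads for the transposase and any filter of peaks are not given in the sources used here, and 324 peak numbers were skipped in the NTG list.

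Summits that shared an interval were joined, and the summit of highest fold enrichment stood for the interval. Read depth is unknown. Whole reads at each summit were solved from fold enrichment and −log10 p, on the assumption of a Poisson background and a pseudocount of 1 as MACS2 uses. The largest error was 0.000561 in −log10 p, and the next whole number missed by at least 0.0364. Summits were annotated with GENCODE 44 lifted to GRCh37, in the order promoter, exon, intron and intergenic. CpG-rich starts were defined over 1 kb. Motifs were searched in windows of 200 bp. Sequences were read from the GRCh37 reference, with chromosome 8 left out of those printed. The work was done with bedtools 2.31.1, Python 3.11.15, matplotlib 3.10.9, scipy 1.17.1, pandas 2.3.3 and numpy 2.4.6. On simulated data the scripts recovered the reads of 3000 of 3000 summits, the class of 2000 of 2000 positions and 1000 of 1000 planted motifs.

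The set of intervals and the gene lists were chosen with earlier results of these data known. Named genes were, for each liver list, up to 4 open genes of highest fold enrichment and up to 3 without an open start in list order, with a few further hepatocyte genes, and for each other list all open genes. HNF4A downstream summits, FOXA1, IGF2, DLK1, the acute phase genes of the complement list and the further sequences were chosen after their values were seen. So were the unopened muscle, bile duct and stellate cell genes. Genes on the X chromosome such as SERPINA7, GPC3, F9, OTC, SYP and DCX were left out, LOR and PECAM1 were not matched, and G6PC was matched as G6PC1. Some genes that the rule names are counted in their lists but not reported singly here. Since a single list stands for the replicates, no test between samples was made. Alternatives were a stricter q, other distances, widths and summit numbers, another annotation, merged intervals and a shorter motif window.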

Additional observations from a re-analysis of the deposited data

How the results depend on the processing

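No paired analysis was possible because each group has 1 list, and leaving out a replicate was not run for the same reason. Of 46 alternatives 23 stayed within the interval of the reported share or within 1.5 times the reported count, and 23 did not. With −log10 q of at least 5, the promoter, exon, intron and intergenic shares were 37.1%, 2.91%, 36.1% and 23.8%, the multi-summit share 26.5% and the wide share 16.1%, and 14 silent-lineage genes had an open start. With a start site within 2.5 kb the class shares were 32.6%, 2.25%, 37.7% and 27.5%, and with protein-coding annotation only 20.2%, 2.27%, 32.0% and 45.5%. With intervals within 500 bp merged into 65274 regions the promoter share was 24.5%, the intron share 42.9% and the wide share 9.96%. At least 3 summits left a share of 8.23% and at least 1500 bp a share of 1.55%. Without summits near another gene's start 7370 protein-coding genes (38.3%) and 91 liver genes (56.5%) were open. The liver share fell below that of all protein-coding genes with the stricter q (73 genes, 45.3% against 51.2%) and by the 5′ end alone (83 genes, 51.6% against 53.5%), where 5 genes of other liver cells were open. Any of the 4 liver motifs stood in 18.5% of windows of 200 bp away from promoters and in 9.95% of windows of 100 bp. The share of tiles with any of the 4 was not computed, and C/EBP alone stood in 11.5% of the 200 bp windows against 10.7% of tiles. The shifts between alternatives follow from how each alternative defines the set. Depth limits the list to sites with at least 12 reads at the summit, and nothing here measures the spread between replicates or cultures.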
